A study of Rattus norvegicus with 9 samples.

Results

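The vasopressin gene Avp and the oxytocin gene Oxt were followed in rat hypothalamus of Controls and after a lesion of the pituitary stalk. They are 2 of the 34784 rows of the count table, ENSRNOG00000021229 for Avp and ENSRNOG00000021225 for Oxt, chosen because their hormones are those of the magnocellular neurons whose axons the lesion cuts. Bulk RNA sequencing was done on S-D strain rat tissue that held the supraoptic nucleus (SON) and the paraventricular nucleus (PVN), with 3 libraries in each of 3 groups: Control, 1 d after PEL surgery and 7 d after PEL surgery. PEL is not spelled out in the labels; as published, the letters stand for an electrical lesion of the pituitary stalk, used to model central diabetes insipidus, in which water is lost in the urine for lack of vasopressin. The labels do not give the age of the animals or what was done to the Controls, nor whether 1 animal gave 1 library. P-values therefore weigh the difference between groups against how far libraries of a group lay apart. That spread may be technical and may not stand for the spread between animals.

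Magnocellular neurons of the SON and PVN make vasopressin and oxytocin as larger precursors that also hold a neurophysin, the carrier protein of the hormone. The precursors are packed into granules and cut to the mature peptides on the way down axons that run through the pituitary stalk to the posterior pituitary, where the peptides enter the blood. Vasopressin makes the kidney retain water and raises blood pressure, and oxytocin drives milk ejection and contraction of the uterus. Smaller neurons of the PVN also make vasopressin, as do those of the suprachiasmatic nucleus nearby.

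Avp and Oxt are neighbours on chromosome 3 in the RefSeq annotation of the GRCr8 assembly, with no annotated gene between them. They lie on opposite strands with their 3′ ends facing each other, next to Mrps26 on the side of Oxt and Ubox5 on the side of Avp. The promoters are shown as a description of these adjoining genes, and no link from promoter sequence to the changes of the transcripts was tested. Both genes were matched by symbol in the RefSeq promoter table. The 250 bases before each start are given 5′ to 3′ on the strand of the gene, at chr3:138248523-138248772 (minus strand) for Avp and chr3:138235504-138235753 (plus strand) for Oxt, both in GRCr8. Capitals mark matches, on either strand, to the 5 short motifs described next.
Avp: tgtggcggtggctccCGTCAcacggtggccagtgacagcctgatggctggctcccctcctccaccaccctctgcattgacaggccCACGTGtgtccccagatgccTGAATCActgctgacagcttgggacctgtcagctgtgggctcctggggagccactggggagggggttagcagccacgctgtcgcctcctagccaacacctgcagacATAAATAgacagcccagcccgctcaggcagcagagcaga
Oxt: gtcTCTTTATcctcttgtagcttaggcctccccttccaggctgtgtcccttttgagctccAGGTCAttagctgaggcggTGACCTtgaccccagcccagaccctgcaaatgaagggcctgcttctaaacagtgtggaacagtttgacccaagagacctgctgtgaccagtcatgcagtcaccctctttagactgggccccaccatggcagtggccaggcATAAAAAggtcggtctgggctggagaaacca

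Each promoter held a TATA-like run (ATAAANA, N being any base) close to the start. It began 39 bases upstream in Avp and 31 bases upstream in Oxt, and Oxt had another match, on the opposite strand, 247 bases upstream. This run was found in 17.9% of the 33469 rat promoter windows of the same length. A G-box core (CACGTG, a sequence that basic leucine zipper and basic helix-loop-helix factors can bind) began 165 bases upstream of Avp, and 5.59% of all windows had one. An AP-1-like match (TGANTCA, a loose form of the site bound by Fos and Jun dimers) began 145 bases upstream of Avp, where it read TGAATCA. A match to this loose form was found in 6.34% of windows. The Avp window also held a half-site of the cAMP response element (TGACG, here on the opposite strand) 235 bases upstream, as did 18.2% of windows. None of these 3 motifs was matched in the Oxt window. The Oxt window instead held a pair of nuclear receptor half-sites (AGGTCA), which began 190 and 171 bases upstream and faced opposite ways. The Avp window had no match to this half-site, which 14.1% of windows had. No motif overlapped another in these windows. These are matches of letters, and binding was not measured.

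Total counts were 18948576 to 21012998 per Control library, 13338433 to 17294334 in the 1 d group and 17014260 to 18685921 in the 7 d group. Levels are given as CPM (counts scaled to a common library size), scaled by TMM factors that correct for library composition. The smallest count of either gene in a library was 7187, a counting error of at most 1.18% of the value, so the spread between libraries was far above counting error. Control replicate 1 stood farthest from its fellows over all genes, with a chi-square per degree of freedom of 39.4 and 40.5 against the other Controls, which gave 19.4 against each other. The statistic, which grows with depth, was 7.18 to 17.8 for pairs within 1 d and 9.61 to 10.8 within 7 d. The table does not pair IDs with symbols, so markers of other cells, receptors, processing enzymes and other peptides were not tested. Both hormone genes were abundant in every library. As the genes under study, they cannot check whether like amounts of each nucleus were taken. The gene table used here gave no link from an Ensembl ID to a symbol for any of its 47357 genes.

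Avp was abundant in Control, higher on average at 1 d and lowest at 7 d. In Control it was at 1892, 1420 and 1131 CPM in replicates 1, 2 and 3, from 36106, 26512 and 23961 counts. At 1 d it was at 2868, 2831 and 1617 CPM, from 51243, 44868 and 22874 counts. At 7 d it was at 399, 573 and 413 CPM, from 7187, 9628 and 7358 counts. Every 7 d library was thus below every other library, while the lowest 1 d library fell inside the range of the Controls. The highest 7 d library was 1.97 times lower than the lowest Control and 2.82 times lower than the lowest 1 d library. Ordered by reads (mean CPM, not corrected for length) among 17345 tested genes, Avp was number 44 in Control, number 15 at 1 d and number 249 at 7 d.

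Oxt was abundant in all 3 groups, which overlapped in every comparison. In Control it was at 2106, 2450 and 1451 CPM in replicates 1, 2 and 3, from 40185, 45743 and 30754 counts. At 1 d it was at 2748, 2050 and 1259 CPM, from 49096, 32489 and 17819 counts. At 7 d it was at 1185, 1475 and 1416 CPM, from 21365, 24761 and 25256 counts. The 1 d libraries covered the widest range, 2.18-fold from lowest to highest, and included the highest of all 9 values. The 7 d libraries lay close together, within 1.24-fold, at the lower end of the other libraries. Oxt was number 26 by mean CPM in Control, number 23 at 1 d and number 53 at 7 d. Because lengths of the counted transcripts are not used here, the level of Avp is not compared with that of Oxt.

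**Figure D1:**
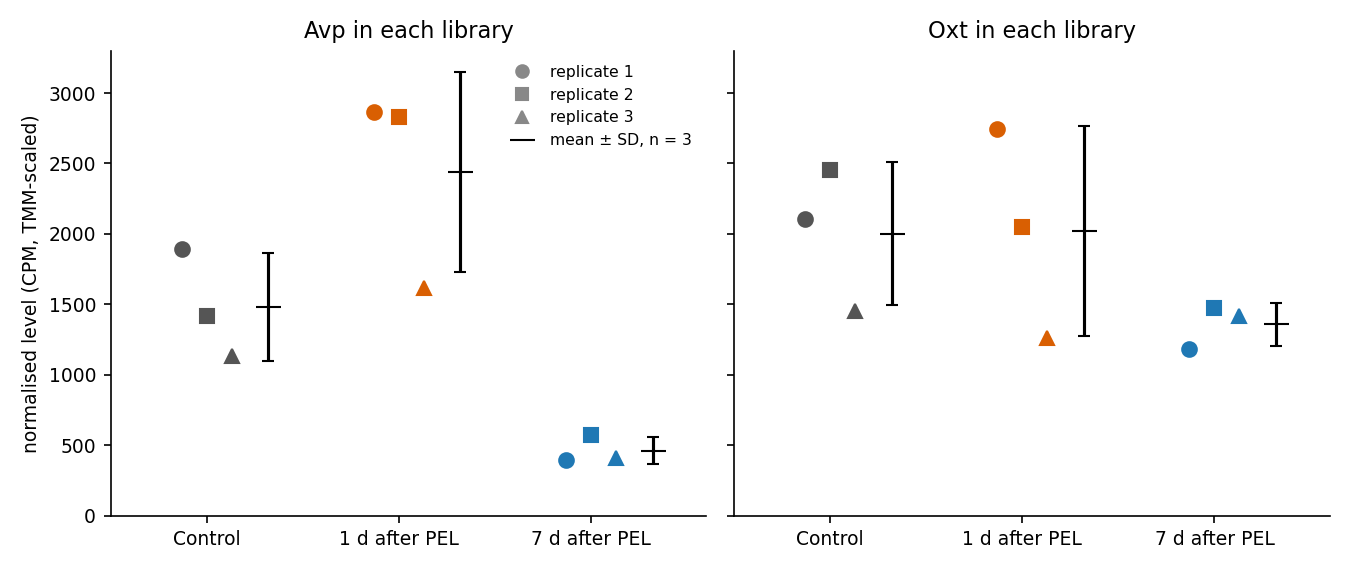
Level of Avp (left) and Oxt (right) in each library, in TMM-scaled CPM on a linear axis from 0, with 3 libraries a group; colours give the group, symbols the replicate number, and black bars the mean ± SD. The 3 Avp values at 7 d, 399 to 573 CPM, lie below all others, whereas the Oxt values of the groups overlap.

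Over the 3 groups together, Avp differed and Oxt was not shown to differ. The edgeR quasi-likelihood test of any difference, with Benjamini-Hochberg adjustment over 17345 genes, gave F = 34.7 and adjusted p = 0.00334 for Avp and F = 2.41 and adjusted p = 0.274 for Oxt. Of all tested genes, 26.7% passed this test. The Avp result held in all 18 alternative settings tried (adjusted p 5.458e-11 to 0.0159). That of Oxt passed in 0 of 18 (adjusted p 0.0744 to 0.510), the lowest being without 1 d replicate 3.

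One day after the lesion neither hormone gene was called changed. Avp had a mean of 2438 ± 712 CPM against 1481 ± 384 CPM in Control (SD, n = 3 each). The log2 fold change was 0.72 (SE 0.275), or 1.65-fold, with a 95% interval of 1.06- to 2.56-fold. Its unadjusted p was 0.0313 and its adjusted p was 0.103 by edgeR, so it missed the threshold of 0.05 after adjustment. In 8 of the 9 pairs of a 1 d and a Control library Avp was higher at 1 d. The mean of Oxt was 2019 ± 745 CPM against 2002 ± 507 CPM in Control (log2 fold change 0.01, SE 0.291, adjusted p = 0.983 by edgeR). The 95% interval for Oxt ran from 0.632- to 1.61-fold, so a change within that range, in either direction, was not excluded.

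Thus 0 of the 2 hormone genes was called higher at 1 d, where 11.4% of tested genes were called higher and 9.01% lower. At an unadjusted p below 0.05 the number was 1, Avp, and DESeq2 (adjusted p = 0.0688 for Avp) and limma-voom (0.0720) also called 0. Avp was called without 1 d replicate 3, which had the lowest level of both hormone genes in its group (log2 fold change 0.94, adjusted p = 0.0365). It was also called with cyclic loess scaling (0.92, adjusted p = 0.0414). The sign of the Oxt value at 1 d was not stable, from -0.28 without 1 d replicate 1 to 0.26 without 1 d replicate 3.

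By 7 d after the lesion Avp had fallen. Its mean of 461 ± 97.2 CPM was 3.21-fold lower than in Control (-1.68 on the log2 scale, SE 0.282, adjusted p = 0.0409 by edgeR), with a 95% interval of the log2 value from -2.33 to -1.03. All 9 pairs of a 7 d and a Control library had less Avp at 7 d. The mean of Oxt was 1358 ± 153 CPM, 1.47-fold below Control (-0.56 on the log2 scale, SE 0.292), which was not called (unadjusted p = 0.0923, edgeR adjusted p = 0.503). Its log2 interval ran from -1.24 to 0.12, and 8 of the 9 pairs had less Oxt at 7 d. In bulk tissue, fewer cells that make a hormone and less RNA of it per cell cannot be told apart.

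So 1 of the 2 hormone genes was called lower at 7 d, against 0.179% of all tested genes called lower and 0.842% called higher. Groups did not overlap, with all 7 d libraries lower, for 7.4% of tested genes, Avp among them. Of the 1000 genes with the highest mean CPM, 1 had a lower fold change than Avp at 7 d, and 8 had a lower one than Oxt. The call of Avp rested on a narrow margin of the adjusted p: it was lost in 10 of 19 alternatives, which gave adjusted p of 0.0597 to 0.133. Over all 19 the log2 fold change lay between -1.87 and -1.47 and the adjusted p between 8.84e-06 (DESeq2) and 0.133. The call was lost in the fit without a filter on low counts, the fit of only the compared groups, and the fits without any 1 library other than 1 d replicate 3. Without Control replicate 1, the library farthest from its group over all genes, the value was -1.47 (adjusted p = 0.0597).

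Between the times the estimated fall of Avp was larger than against Control. The gap between these estimates is the change at 1 d, which was not called. From 1 d to 7 d the level of Avp fell 5.28-fold (-2.40 on the log2 scale, SE 0.289, adjusted p = 0.00155 by edgeR), with a log2 interval from -3.07 to -1.73. It was called in all 19 alternatives (log2 fold change -2.62 to -2.26, adjusted p 6.617e-13 to 0.00966), those without each library included. Oxt differed by a log2 fold change of -0.57 (SE 0.292, interval -1.25 to 0.10), which was not called (edgeR adjusted p = 0.186). Without 1 d replicate 3 the Oxt value was -0.81 and was called (adjusted p = 0.0367), and without 1 d replicate 1 it was -0.27 (adjusted p = 0.506). Among all tested genes 15.8% were called lower and 13.4% higher in this comparison, and 24.2% had all 7 d libraries below all 1 d libraries. Being called lower was therefore common, but of the 1000 most abundant genes only 1 had a lower fold change than Avp. Each time was compared with the same Control libraries, and the direct comparison shares its libraries with both.

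**Figure D2:**
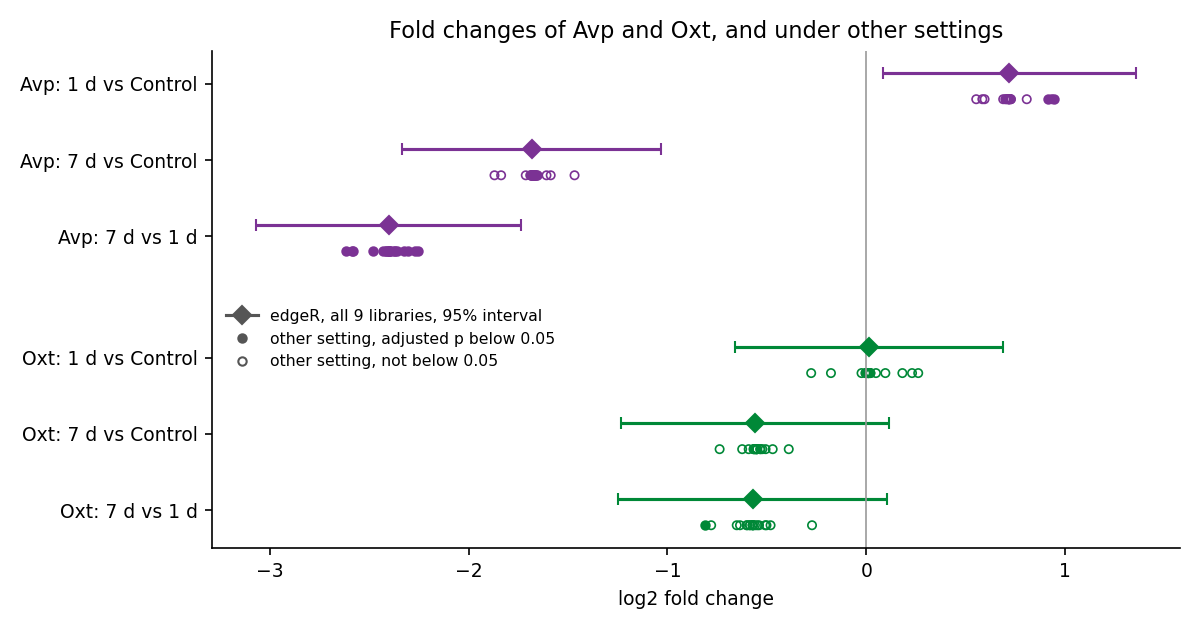
Log2 fold changes of Avp (purple) and Oxt (green) in the 3 comparisons; diamonds with bars are edgeR estimates from all 9 libraries with 95% intervals, and the circles under each are the 19 alternative settings, filled where the adjusted p was below 0.05. Avp at 7 d against 1 d is filled throughout, from -2.62 to -2.26, while Oxt is open in all settings but 1.

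**Figure D3:**
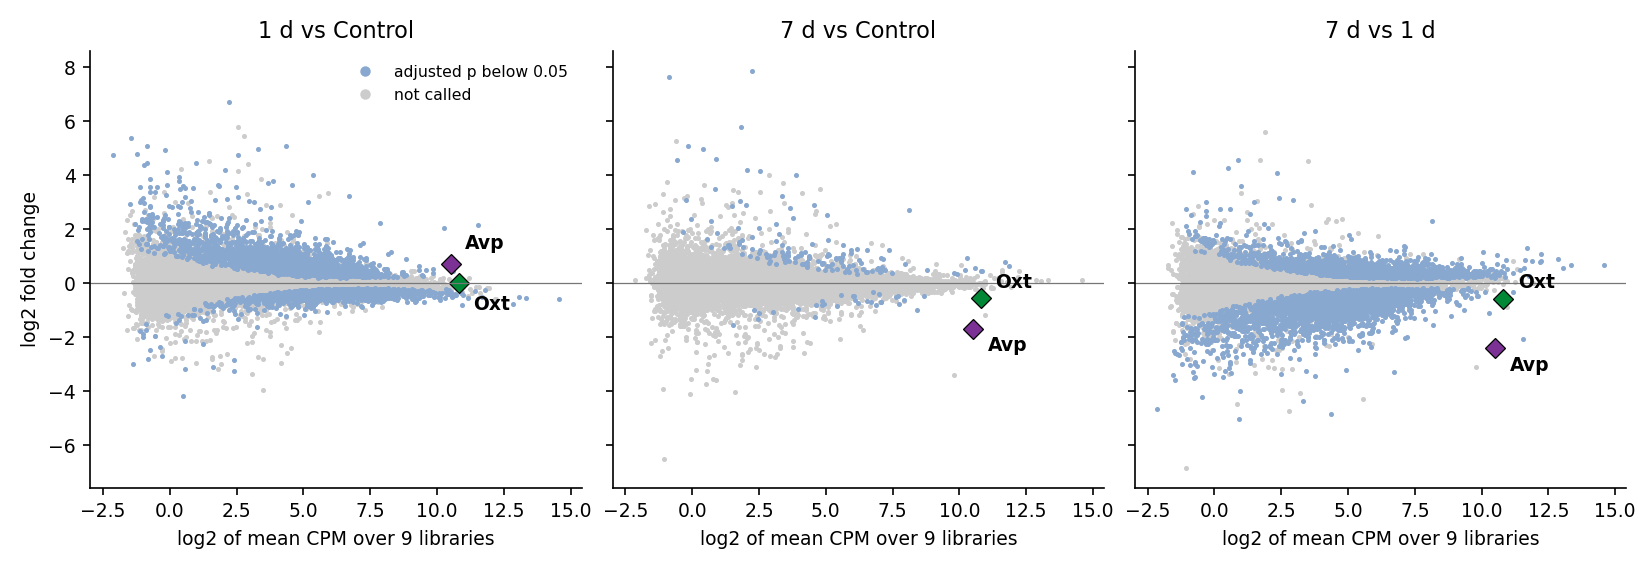
Log2 fold change against log2 mean CPM over 9 libraries for the 17345 tested genes in the 3 comparisons, with genes called at an adjusted p below 0.05 in blue and others in grey. Avp and Oxt (diamonds) lie at the abundant end, where most genes are near 0, and Avp lies well below them in both comparisons of 7 d.

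The relation between the 2 hormone genes was read from the number of Avp reads per Oxt read in the same library. Gene length and library scaling cancel when this ratio is compared between libraries. In Control it was 0.898, 0.580 and 0.779 in replicates 1, 2 and 3. At 1 d it was 1.04, 1.38 and 1.28, and at 7 d it was 0.336, 0.389 and 0.291. The 3 groups did not overlap: every 1 d library had more Avp reads than Oxt reads, every Control library had fewer, and every 7 d library fewer still. In the summed reads of both genes the share of Avp was 36.7 to 47.3% in Control, 51.1 to 58.0% in the 1 d group and 22.6 to 28.0% in the 7 d group.

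The ratio differed among the 3 groups more than between replicate libraries. The mean log2 ratio was -0.43 ± 0.32 in Control, 0.30 ± 0.21 at 1 d and -1.57 ± 0.21 at 7 d (SD, n = 3 each). Among all 280 ways to divide the libraries into groups of 3, the real one had the highest F statistic, 41.6 (exact permutation p = 0.00357, the smallest possible). The ratio was 1.66-fold higher at 1 d than in Control, 2.20-fold lower at 7 d than in Control and 3.65-fold lower at 7 d than at 1 d. Each of these 3 pairwise comparisons gave p = 0.1 in an exact two-sided permutation test, the lowest value possible with 3 libraries a group, and 0.1 after Benjamini-Hochberg adjustment over the 3. Avp and Oxt thus changed by different amounts over the groups, whereas the change of Oxt taken alone was not called.

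**Figure D4:**
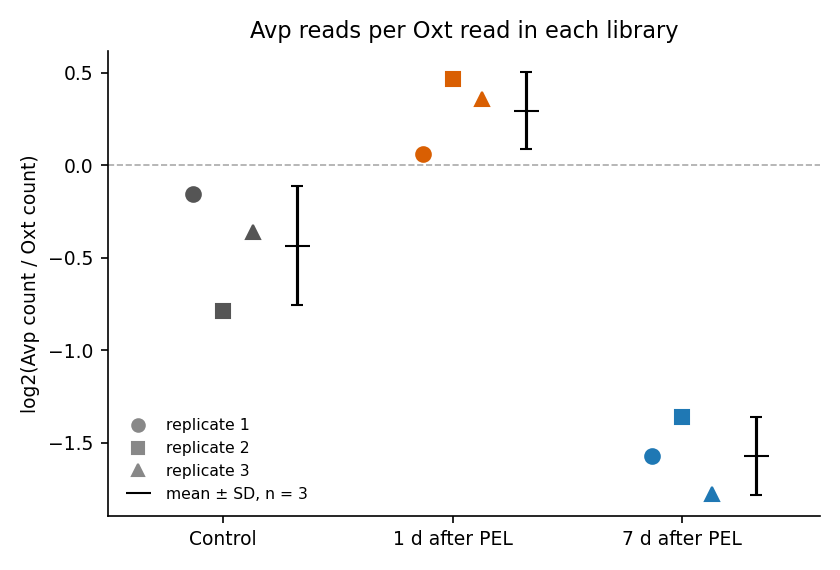
Log2 of the count of Avp divided by the count of Oxt in each library, by group, with symbols for the replicate number and black bars for the mean ± SD (n = 3); the dashed line marks equal counts. All 1 d libraries lie above 0, all Controls between -0.79 and -0.15, and all 7 d libraries at or below -1.36.

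Pooled over the groups, replicates spread less in this ratio than in either level, though at 7 d the SD was 0.208 for the log2 ratio and 0.168 for log2 CPM of Oxt. The pooled within-group SD was 0.253 for the log2 ratio, against 0.385 for log2 CPM of Avp and 0.409 for log2 CPM of Oxt. Both genes were lowest in replicate 3 at 1 d and in replicate 3 of Control, and both were highest in replicate 2 at 7 d. The 1 d replicate 3, at 1617 CPM of Avp and 1259 CPM of Oxt, had a ratio of 1.28, between those of the other 1 d libraries. Summed over the genes, the level was 3998, 3870 and 2582 CPM in the Controls, 5615, 4881 and 2876 CPM at 1 d and 1583, 2048 and 1829 CPM at 7 d. The summed level was thus below every other library at 7 d, and overlapped between Control and 1 d.

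The hormone genes varied more between replicates than most genes of high abundance. The within-group SD of Avp was larger than that of 98.4% of the 1000 most abundant genes, and that of Oxt larger than that of 99.0%, for which the median was 0.0988. Within groups, the SD of log2 CPM was 0.372 in Control, 0.472 at 1 d and 0.290 at 7 d for Avp. For Oxt the corresponding values were 0.389, 0.568 and 0.168. How much of each nucleus was in each tissue piece is not recorded in the labels, and its part in this spread was not tested.

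Likeness of time course was described by Pearson's r of log2 CPM over the 9 libraries, among genes with a mean of at least 5 CPM. Avp and Oxt had an r of 0.727 with each other, in libraries that share their depth and their tissue piece. Oxt was number 1088 of 12328 genes in likeness to Avp, and Avp was number 74 of 12328 in likeness to Oxt. The gene most like Avp was Novel01874, an ID outside Ensembl's naming (r = 0.965). It was at 29.1 ± 0.309 CPM in Control, 33.9 ± 1.42 at 1 d and 22.3 ± 2.52 at 7 d (SD, n = 3 each), so its changes were much smaller. The gene most like Oxt was ENSRNOG00000001034 (r = 0.928), at 108 ± 3.81, 106 ± 6.41 and 102 ± 0.802 CPM. An r this high over 9 libraries, picked as the highest of so many, is a description of these libraries only.

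The coding sequences of vasopressin and oxytocin are known to share a closely similar stretch that encodes the core of the neurophysins. How the counting treated reads that fit both genes, and whether it used strand, is not given in the sources used here. The part of such reads in either count is therefore unknown.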

How the data were processed

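The authors deposited 1 table of raw counts (whole numbers) for each gene and library, not normalized. Per the submitters' processing notes DESeq2 1.16.1, featureCounts 1.5.0-p3 and HISAT2 2.0.5 were used. Build, annotation and strand setting: not given in the sources used here. Libraries were grouped by title. Genes passing edgeR's filterByExpr (17345 of 34784, both hormone genes included) were scaled by TMM and tested with edgeR 4.0.16 (robust glmQLFit and glmQLFTest, R 4.3.3) in 1 fit of all 9 libraries by group. Two-sided p-values were adjusted over all tested genes by Benjamini-Hochberg, with a threshold of 0.05. Standard errors were the size of the log2 fold change over √F, and log2 CPM used a prior count of 2. The Avp to Oxt count ratio was compared by exact two-sided permutation over libraries. The code was tested on simulated data. Alternatives were 3 other scalings, cyclic loess, 2 filters, DESeq2 1.42.0, limma-voom 3.58.1, fits of the compared groups only, a block for replicate number, leaving out each library and, for the ratio, 0.5 added to the counts. Values are given for both hormone genes and, by the rule for further genes, for the 1 gene whose log2 CPM had the highest Pearson's r with each. The members, lists and tests were chosen with earlier results of these data known. Gene lists of the pathway and of cell types were not tested, because IDs were not paired with symbols. Total counts were 13338433 to 21012998. No replicate pair agreed within sampling noise (chi-square per degree of freedom of 7.18 or more).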

Additional observations from a re-analysis of the deposited data

Results flagged for a closer look

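The change of Avp from Control differed between 1 d and 7 d. The log2 fold change was 0.72 for 1 d, which was not called (edgeR adjusted p = 0.103). It was -1.68 for 7 d, a call that was lost in 10 of 19 alternatives. The direct test of 7 d against 1 d, in which Control cancels, gave -2.40 (edgeR adjusted p = 0.00155), with all 9 pairs of libraries lower at 7 d. That test does not show a rise at 1 d. The Avp to Oxt count ratio lay on opposite sides of Control at the 2 times: all 1 d libraries were above all Controls and all 7 d libraries below them. The difference between the times was -1.87 on the log2 scale (p = 0.1 by exact permutation, the lowest possible with 3 libraries a group). Each comparison with Control also gave p = 0.1 by exact permutation. How often the ratio of other pairs of genes separates the groups in this way was not examined. Groups of 3 libraries were too small for a check of single outlying values.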

How the results depend on the processing

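Of 218 values of 12 results under alternative settings, 182 kept their direction and their side of the threshold or, for counts of genes, stayed within 1.5 times. These include all 19 for Avp at 7 d against 1 d, all 18 for Avp over the 3 groups and all 11 for the Avp to Oxt ratio over the 3 groups (F 27.3 to 69.6 without single libraries, exact permutation p up to 0.00714). Pairwise ratio tests cannot reach 0.05 and are not counted. As groups did not overlap, leaving out a library could not change any sign. The log2 fold change of Avp at 1 d passed the threshold after cyclic loess normalization (0.92) and was 0.55 to 0.94 without single libraries. That of Avp at 7 d missed the threshold without a filter on low counts (-1.69) and in a fit of the compared groups alone (-1.68), with -1.87 to -1.47 without single libraries. The Oxt value at 1 d changed sign by limma-voom (-0.024), and was -0.28 to 0.26 without single libraries; below 0 were -0.18 (Control replicate 3 left out), -0.28 (1 d replicate 1) and -0.0013 (1 d replicate 2). For Oxt at 7 d against 1 d the range without single libraries was -0.81 to -0.27. The cause was not tested. The number of genes called at 1 d, 3540, was 2066 in a fit of the compared groups and 1440 to 4595 without single libraries. At 7 d, 177 became 523 by DESeq2, 28 in a fit of the compared groups and 7 to 739 without single libraries. Between the times, 5069 became 3071 to 6070 without single libraries.

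Replicate numbers are shared by the groups, but over all tested genes libraries of the same number showed little common deviation (correlation of deviations -0.155 to 0.0351). With 3 libraries a group this cannot settle whether libraries of the same number were paired. With replicate number as a block in edgeR the log2 fold change of Avp at 1 d was 0.70. Its unadjusted p was 0.00774 (0.0313 without the block) and its adjusted p was 0.0508 (0.103 without), still not called. The block gave -1.66 for Avp at 7 d (edgeR adjusted p = 0.0304) and -2.36 between the times, and the Oxt value at 1 d was -0.0045. The block moved the number of genes called at 7 d to 74, and the ratio test over the 3 groups gave F = 41.9 (exact permutation p = 0.0278). Libraries did not correlate best with their own number throughout. A library left alone or in a pair is assumed to vary like the other groups. The smallest count of a hormone gene was 7187, so counting error was small beside the spread between libraries.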
